A study of Saccharomyces cerevisiae with 27 samples.

Results

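Divergent genes that share a short promoter are neighbours on opposite DNA strands whose 5′ ends face each other across a short stretch of DNA. Here 672 of 5298 yeast genes (12.7%) belonged to this class, chosen by position alone. A member's 5′ neighbour lies on the other strand with at most 300 bp between the deposited gene intervals, and its 3′ neighbour lies on the same strand. These genes form 522 divergent pairs. In 150 of the pairs both genes were members, and in 372 pairs only 1 was, because the partner's own 3′ neighbour faces it.

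In Saccharomyces cerevisiae the stretch between 2 divergent genes is usually a nucleosome-depleted region that is used in both directions, with a separate transcription machinery assembled for each gene. Such promoters also give rise to short unstable transcripts on the side away from a gene, and the nuclear exosome, with its subunit Rrp6, degrades them. Hst3 and Hst4 are sirtuins, deacetylases that remove the acetyl group from lysine 56 of histone H3, a mark carried by newly deposited nucleosomes.

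The study used log-phase cultures of strains built for anchor-away, a method in which a protein fused to FRB leaves the nucleus once rapamycin is present. WT carried no FRB fusion named in the labels, hst34 had HST4 deleted and HST3-FRB, rrp6 had RRP6-FRB, and hst34rrp6 combined all 3 changes. All groups, WT included, were grown in YPD at 30 °C and had rapamycin for 3 h. RNA-seq covered the 4 strains with 2 libraries each, with Schizosaccharomyces pombe cells mixed in 1:6 as a spike-in, and DRIP-seq, which recovers DNA held in RNA-DNA hybrids, covered WT and hst34 with and without 30 U of RNase H, again with 2 libraries each. Break-seq of WT and hst34, which captures ends of broken DNA, gave 1 peak list with 2 libraries per strain. The labels do not say that the libraries of a group were separate cultures. A p-value therefore rests on the scatter of the samples at hand, and that scatter may be technical only.

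RNA libraries held 5487526 to 10183415 reads in genes. DRIP-seq libraries held 935412 to 2951246, except the library WT 2 with 83303106. HST4 RNA, which checks the deletion, stood at 91.5 to 100.3 signal units per kb in the 4 libraries with the gene and at 0 to 9.69 in the 4 without it. HST3 is itself a member, with AHC1, a subunit of an acetyltransferase complex, across a gap of 260 bp. Its RNA gave 236.9 and 320.5 per kb for WT, 317.7 and 329.7 for hst34, 342.9 and 365.5 for rrp6, 349.5 and 402.0 for hst34rrp6, and it passed no test between strains. Anchor-away moves the protein, and the RNA of a fused gene does not report that.

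The members were spread over all 16 chromosomes, from 9.60% of the listed genes on chromosome V to 14.6% on chromosome VI. Plus-strand genes made up 343 and minus-strand genes 329 of them. The gap within a pair had a median of 164 bp, with quartiles at 124 and 204 bp, against 244 bp over all 1395 divergent pairs. In 37 pairs, with 52 members, the intervals overlapped, by up to 2356 bp. A gap of 0 to under 100 bp was found for 52 members, of 100 to under 200 bp for 386 and of 200 to 300 bp for 182. In 521 of the 522 pairs the gap left a remainder of 4 bp when divided by 8, so the ends of the deposited intervals lie on a grid and are not base-exact start sites. Just inside the limit, CYS4 and PRE5 had a gap of 300 bp, and just outside it MRPL16 and PLB1 had 308 bp. The median interval was 1476 bp long in members and 1512 bp over all genes.

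**Figure D1:**
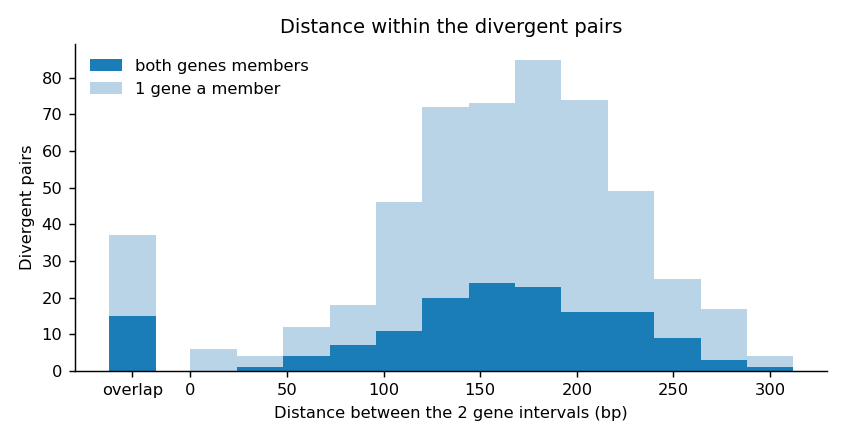
Number of divergent pairs (vertical axis) by the distance in bp between the 2 gene intervals (horizontal axis, bars of 24 bp, overlapping pairs in the bar on the left). Dark bars are the pairs in which both genes are members and light bars those with 1 member; most pairs lie between 100 and 240 bp and 37 overlap.

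None of the textbook bidirectional promoters fell into the class. GAL1 and GAL10, the galactose genes, were 428 bp apart, and the histone pairs were 534 bp (HHT2 and HHF2), 564 bp (HHT1 and HHF1) and 596 bp (HTA1 and HTB1) apart. HTA2 and HTB2 were 204 bp apart, but the 3′ neighbour of each is convergent. The pyridoxine genes SNO1 and SNZ1 were 427 bp apart.

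Members had lower RNA levels than genes at large in each of the 8 RNA libraries. Their median was 248.2 and 287.2 signal units per kb in the WT libraries against 313.7 and 357.7 over all genes, and the ratio of the medians was 0.789 to 0.827 over the 8 libraries. Genes whose divergent neighbour lies farther than 300 bp away had WT medians of 373.1 and 423.6, above both. The share of reads in genes that fell in members was 5.60% and 5.71% for WT, 5.84% and 5.75% for hst34, 6.25% and 6.34% for rrp6, then 6.61% and 6.79% for hst34rrp6. The values of the 4 strains did not overlap, while those of the ratio of the medians did. No share was computed for another class, so this difference was not shown to be particular to members. In bulk samples, a change in the number of cells that use a gene and a change in RNA per cell cannot be told apart.

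The genes of a pair sharing a short promoter had more alike RNA levels than the other classes of neighbours compared here. In WT the median difference between the 2 genes was 1.03 and 1.08 log2 units over the 522 pairs. It was 1.71 and 1.73 over 632 divergent pairs farther apart. Over 1743 tandem pairs at 0 to 300 bp it was 1.37 and 1.40, and over 1391 convergent pairs 1.31 and 1.34. The 2 genes were within 2-fold of each other in 48.3% and 46.7% of member pairs and in 31.6% of the farther divergent pairs in each WT library. That share was 37.6% and 37.2% over the tandem pairs and 39.0% and 38.0% over the convergent pairs. Differences of over 8-fold made up 7.28% and 8.05% of member pairs and 25.3% and 25.9% of the farther pairs. They made up 15.3% and 15.7% of the tandem pairs and 16.2% and 17.0% of the convergent pairs. Across the 522 pairs the log2 levels of the 2 genes had a Pearson correlation of 0.13 and 0.15 in the WT libraries, against 0.02 in each over the farther pairs. A pseudocount of 58.8 was added before the log, which shrinks differences more at low levels, and members had lower levels. These are descriptions of shared libraries, with no test.

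The comparison of hst34 with WT asks what loss of both sirtuins does to these genes. SIS1 (YNL007C, chromosome XIV, 618472 to 619744, sacCer3), an essential J-domain partner of the Hsp70 chaperones, was the only member that passed the limma test without centring. WT gave 1224 and 1164 per kb and hst34 gave 2211 and 1839, a rise of 0.73 ± 0.22 on the log2 scale (adjusted p = 0.0486, limma). Both hst34 values lie above the other 6, of which rrp6 had 1206 and 1260 and hst34rrp6 had 1189 and 1559. LST8, a subunit of both TOR complexes, lies across 284 bp and had 348.3 and 426.1 in WT and 497.3 and 407.2 in hst34 (log2 change 0.20 ± 0.22, adjusted p = 0.954).

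One call among 672 members stands against 2.0% of all genes called, 0.661% higher and 1.34% lower. The median change was −0.08 in members and −0.08 over all genes, and 31 members had an unadjusted p under 0.05, against 8.33% of all genes. The 2 hst34 libraries differ by an offset in their medians over all genes (8.71 and 8.33 on the log2 scale), which not every gene follows. The count moved with the libraries kept and was largest without hst34 1, where falls outnumbered rises. With each library centred on its own median it was 11 higher and 16 lower. Over all genes centring called 7.52%. EdgeR, which also removes such an offset, called 43 members, against 10.8% of all genes. SIS1 passed with edgeR and DESeq2 and with centring, and did not pass with a pseudocount of 1, with the lowest 25% of genes dropped, with only the compared groups in the fit, with a replicate block, or without either WT library.

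The balance of a pair is the difference between the log2 levels of its 2 genes. It removes most of that offset, but less of it where a gene lies near or below the pseudocount of 58.8 added before the log. In hst34 against WT it changed in 18 of 522 member pairs (3.45%), against 9.65% of all 5276 pairs of neighbouring genes, and with a pseudocount of 1 in 16. The largest change was in the pair of CMK2, a calmodulin-dependent kinase, and IRC10, 212 bp apart. CMK2 gave 936.2 and 808.5 per kb for WT and 543.8 and 256.6 for hst34, while IRC10, a member, had 40.0 and 40.3 in WT and 54.8 and 25.1 in hst34. CMK2 fell by 1.09 ± 0.22 (adjusted p = 0.000159, limma) and the IRC10 value was −0.02 ± 0.13, a balance shift of −1.07 ± 0.16, which was −1.11 with a pseudocount of 1.

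FCY1, cytosine deaminase, fell by 0.75 ± 0.22 (adjusted p = 0.0364, limma), from 722.4 and 841.9 in WT to 330.8 and 576.8 in hst34. Its partner JID1, a J-domain protein of mitochondria and a member, had 102.8 and 119.2 in WT and 137.9 and 97.0 in hst34. The balance of this pair shifted by 0.80 ± 0.24 (adjusted p = 0.0488, limma). It was 0.28 without hst34 1 and 1.32 without hst34 2, and did not pass without hst34 1, without either WT library or with a pseudocount of 1. In both pairs the called gene is the partner and not the member, and 14 of the 18 pairs held no gene that passed its own test.

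The comparison of rrp6 with WT asks what removal of Rrp6 from the nucleus does. Of the members, 31 rose and 30 fell, together 61 of 672, against 11.2% of all genes called. The shares by direction over all genes were 4.53% higher and 6.63% lower. The median change was 0.02 in members and −0.00 over all genes. The WT and rrp6 libraries did not overlap for 60 of the 61, but the same libraries picked these genes, so this is no separate support. Centring each library raised the calls to 90 higher and 116 lower, against 33.3% of all genes, and edgeR called 221, against 36.1%. Leaving out any 1 WT or rrp6 library lowered the limma count of 61.

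Several of the largest rises were in genes with very low WT levels. YLR349W (chromosome XII, 826855 to 828599) gave 15.5 and 29.2 per kb for WT, 26.0 and 32.6 for hst34, 221.5 and 268.0 for rrp6, 214.1 and 285.5 for hst34rrp6. The 4 libraries without nuclear Rrp6 lie far above the other 4, and the rise was 1.90 ± 0.17 (adjusted p = 1.50e-27, limma). Its interval overlaps that of DIC1, the mitochondrial dicarboxylate carrier on the other strand, by 1012 bp. DIC1 had 258.9 and 308.0 in WT and 436.7 and 524.9 in rrp6 and rose by 0.66 ± 0.22 (adjusted p = 0.0285, limma). Use of strand in the counting is not stated, so it is not known how reads in the overlap were assigned to these 2 genes.

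YPL216W, a paralog of the chromatin-remodelling subunit ITC1, stood at 53.0 and 58.6 in WT and 278.5 and 295.1 in rrp6 and rose by 1.59 ± 0.19 (adjusted p = 3.03e-15, limma). Its partner BMS1, a GTPase of ribosome assembly, lies 188 bp away and had 505.8 and 494.8 in WT and 565.5 and 613.3 in rrp6. BMS1 did not pass (0.21 ± 0.22, adjusted p = 0.672, limma), so the call is on 1 side of the gap.

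SPO23, a gene whose product binds the meiotic protein Spo1, rose from 13.5 and 19.1 to 95.1 and 111.8 (1.11 ± 0.14, adjusted p = 2.21e-13, limma). ARO4, a first-step enzyme of aromatic amino acid synthesis, lies 204 bp away at 5180 and 7324 in WT and 5628 and 6347 in rrp6, so 1 gap in WT lay between a gene among the more abundant and one near the floor. YGR121W-A rose from 49.5 and 54.9 to 233.5 and 298.3 (1.54 ± 0.18), and its interval overlaps that of the ammonium permease gene MEP1 by 100 bp.

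Several members with known roles rose with these. SAE2, which starts the trimming of broken DNA ends, had 54.7 and 67.1 in WT, 173.6 and 180.6 in rrp6 and 216.8 and 251.1 in hst34rrp6. It rose by 0.98 ± 0.17 in rrp6 (adjusted p = 7.14e-07, limma), while BUD13, a splicing factor subunit 172 bp away, had 135.6 and 139.7 in WT and 96.2 and 125.5 in rrp6. ODC2, a mitochondrial oxodicarboxylate carrier, rose from 574.3 and 725.2 to 1255 and 1434 (0.99 ± 0.22). RKM5, a lysine methyltransferase of a ribosomal protein, IMO32, YNL162W-A and DOG1, a deoxyglucose-phosphate phosphatase, complete the 10 largest rises, with 1.18, 1.14, 1.01 and 0.97. DOG1 has a near-identical copy, DOG2, so its value is uncertain.

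The largest fall was in OPI3 (YJR073C, chromosome X, 572204 to 572964), a methyltransferase that makes phosphatidylcholine. OPI3 gave 1651 and 2105 per kb for WT, 1762 and 1466 for hst34, 602.0 and 616.8 for rrp6, 749.7 and 855.9 for hst34rrp6. All 4 libraries without nuclear Rrp6 lie below the 4 with it, and the fall in rrp6 was 3.08-fold between the means and −1.53 ± 0.22 on the log2 scale (adjusted p = 5.02e-10, limma).

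GPI14 (YJR013W, chromosome X, 460312 to 461680), a mannosyltransferase of the glycosylphosphatidylinositol anchor, had 334.1 and 465.2 in WT and 90.7 and 116.5 in rrp6. It fell by 1.49 ± 0.21 (adjusted p = 7.39e-11, limma), and YJR012C, 108 bp away, had 126.9 and 173.1 in WT and 141.5 and 167.1 in rrp6. Other members that fell were DAL3, an enzyme of allantoin use (−1.0 ± 0.21), RBD2, a rhomboid-type protein (−1.0 ± 0.22), MMS2, the partner of Ubc13 in post-replication repair (−0.93 ± 0.22), and RCR1, a protein of the endoplasmic reticulum (−0.82 ± 0.22). PEX14, of the peroxisomal import machinery, MHT1, an S-methylmethionine methyltransferase, TSC10, a reductase of sphingolipid synthesis, and AIM6 followed at −0.82, −0.82, −0.81 and −0.80.

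**Figure D2:**
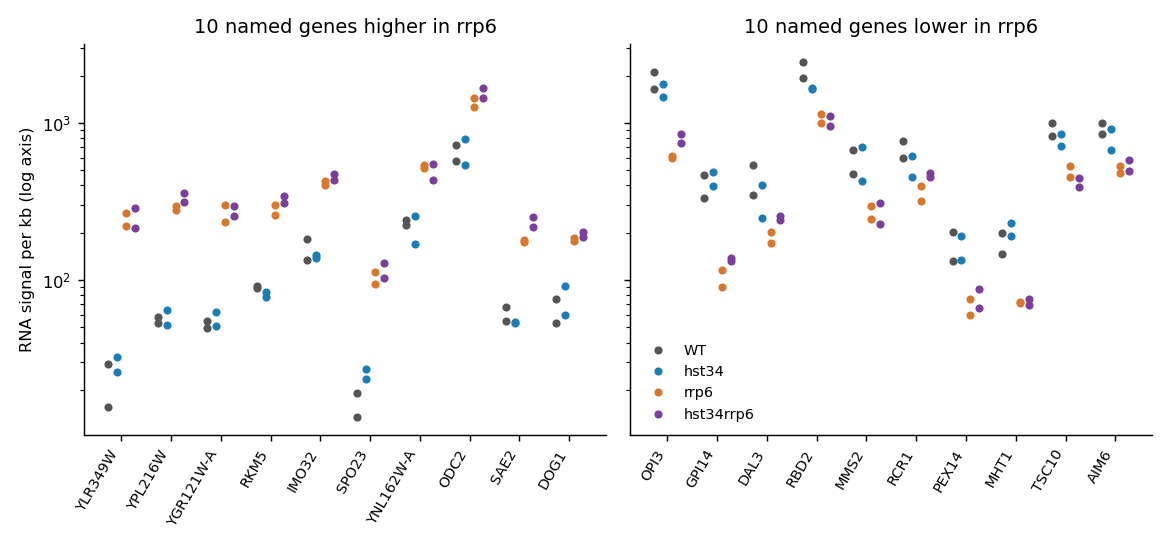
RNA signal per kb on a log axis in the 2 libraries of each of 4 strains (points) for the 10 members with the largest rise and the 10 with the largest fall in rrp6 against WT. In every gene shown the 2 rrp6 points lie on one side of the 2 WT points, and the hst34rrp6 points lie on the same side as the rrp6 points.

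The comparison of hst34rrp6 with WT shares its WT libraries with the comparisons above. Here 71 members rose and 27 fell, 98 of 672, against 15.9% of all genes called (10.2% higher and 5.70% lower). The median change was 0.14 in members and 0.11 over all genes. With each library centred the median over all genes moved to −0.02 and the split of the members changed to 104 higher and 128 lower, so the excess of rises rests on the deposited scaling. Centring called 38.7% of all genes. EdgeR called 257 members, against 42.1% of all genes. Leaving out any 1 WT or hst34rrp6 library lowered the limma count of 98.

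The named rises had values close to those in rrp6, with YLR349W at 1.92 ± 0.17, YPL216W at 1.78 ± 0.19, SAE2 at 1.29 ± 0.17 and SPO23 at 1.22 ± 0.14. TAH1, a cofactor of the chaperone Hsp90, rose by 1.14 ± 0.22 (adjusted p = 8.18e-06, limma). WT gave 383.2 and 492.1, hst34 557.7 and 447.0, rrp6 627.9 and 797.9, hst34rrp6 1092 and 967.2, so the double strain had both of the highest values. YIH1, which regulates the kinase Gcn2 and lies 116 bp away, had 495.8 and 782.2 in WT and 537.4 and 492.2 in hst34rrp6. FMP49 rose by 1.14 ± 0.15, but its interval overlaps that of HVG1 by 1116 bp. Among the falls, VTC3, a subunit of the vacuolar polyphosphate polymerase, had 2217 and 2446 in WT and 1293 and 1515 in hst34rrp6 (−0.71 ± 0.22), and the interval of its partner CTF19, a kinetochore subunit, overlaps it by 92 bp.

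Set directly against rrp6, hst34rrp6 had 5 members higher and 0 lower, against 1.04% of all genes called and 0.0378% called lower. EST1 (YLR233C, chromosome XII, 607141 to 609573), a subunit of telomerase, had 75.6 and 78.0 per kb in rrp6 and 142.8 and 156.4 in hst34rrp6, a rise of 0.62 ± 0.16 (adjusted p = 0.0150, limma). In WT it had 60.03 and 80.2 and in hst34 93.1 and 59.6, so the 2 hst34rrp6 libraries are the highest of the 8. TOP3, the topoisomerase that works with the helicase Sgs1, lies 164 bp away and had 52.9 and 67.4 in rrp6 and 81.6 and 92.5 in hst34rrp6 (0.30 ± 0.15, adjusted p = 0.628).

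SRX1, sulfiredoxin, which repairs oxidised peroxiredoxins, had 13.7 and 10.0 in rrp6 and 39.6 and 40.0 in hst34rrp6, from 7 to 28 reads per library. YOR186W had 38.3 and 36.3 in rrp6 and 77.1 and 76.8 in hst34rrp6. YER079W, which RefSeq separates from its partner by another gene, had 34.3 and 33.2 in rrp6 against 76.1 and 78.4 in hst34rrp6, but 92.9 and 90.7 in WT. IRC18 rested on 9 and 4 reads in rrp6 and 18 and 10 in hst34rrp6 and did not pass with edgeR. With each library centred, 3 members were higher and 1 lower, against 1.19% of all genes, and IRC18, YER079W, YOR186W and SRX1 no longer passed. The count was 1 without rrp6 1, 0 without rrp6 2, 3 without hst34rrp6 1 and 1 without hst34rrp6 2, and EST1 passed in none of these.

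The difference between the effect of hst34 in the rrp6 background and in the WT background passed the test for 1 member, GUD1, which was higher, against 1.19% of all genes called, 1.15% higher and 0.0378% lower. It passed for the balance of 2 member pairs, against 2.35% of all pairs.

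The share of members called varied with the gap. In rrp6 against WT it was 17.3% of the 52 members with overlapping intervals, 7.69% of the 52 under 100 bp, 6.74% of the 386 from 100 to under 200 bp and 12.1% of the 182 at 200 to 300 bp. In hst34rrp6 against WT it was 25%, 19.2%, 12.4% and 14.8% in the same order. Partners that are not members, 372 genes, had 23 higher and 7 lower in rrp6, and 42 higher and 11 lower in hst34rrp6. Genes whose divergent neighbour lies farther away, 1265 tested, had 69 higher and 120 lower in rrp6 and 133 higher and 95 lower in hst34rrp6. The differences between these classes were not tested.

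In rrp6 both genes were called in 12 of 522 pairs (2.3%), against 1.80% of all neighbouring pairs, of which 3 rose on both sides, 4 fell on both and 5 moved in opposite directions, while 67 pairs had 1 gene called. In hst34rrp6 the numbers were 18 pairs (3.45%, against 3.30% of all neighbouring pairs) with 6 rising, 3 falling and 9 opposite, and 115 with 1 gene called. The share of all neighbouring pairs with 1 gene called was not computed, so these 67 and 115 pairs have no background. Of all genes, 11.2% and 15.9% were called.

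OPI3 and MOG1 (chromosome X, with a gap of 204 bp) fell together. MOG1, which binds the Ran GTPase of nuclear import, had 397.7 and 472.0 in WT and 223.7 and 260.0 in rrp6, a fall of 0.71 ± 0.22 (adjusted p = 0.0122, limma). The OPI3 fall was larger, by 0.81 ± 0.13 log2 units in the balance test.

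TIS11, a factor that speeds decay of iron-dependent messages, and RKM5 lie 52 bp apart and rose together. TIS11 had 46.4 and 58.2 in WT and 146.3 and 176.1 in rrp6, while RKM5 had 91.2 and 89.7 and then 260.1 and 300.8. The rises were 0.98 ± 0.17 and 1.18 ± 0.19 in rrp6, and 1.18 ± 0.17 and 1.37 ± 0.19 in hst34rrp6. The balance value was −0.20 ± 0.13 in rrp6 (adjusted p = 0.269, limma), which does not show that both sides changed alike.

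COX9, a subunit of cytochrome c oxidase, and IDP1, the mitochondrial NADP-dependent isocitrate dehydrogenase, lie 68 bp apart and fell by 0.68 ± 0.22 and 0.67 ± 0.22 in rrp6. COX9 had 1444 and 1742 in WT and 935.8 and 1002 in rrp6, and IDP1 had 2655 and 3993 and then 2007 and 2033. GPI18, another mannosyltransferase of the anchor pathway, and RCR1 fell by 0.93 ± 0.22 and 0.82 ± 0.22, as did IRC24, a benzil reductase, and HYR1, a thiol peroxidase that senses hydrogen peroxide, by 0.63 ± 0.21 and 0.63 ± 0.22. Of these, COX9, RCR1 and IRC24 are members and IDP1, GPI18 and HYR1 are not.

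Other pairs moved in opposite directions. RBD2 (YPL246C, chromosome XVI, 84477 to 85381) and YPL245W (85537 to 87089) are 156 bp apart. RBD2, the member, gave 1944 and 2448 per kb for WT, 1672 and 1640 for hst34, 995.6 and 1138 for rrp6, 952.6 and 1100 for hst34rrp6. YPL245W gave 242.3 and 398.7 for WT, 373.0 and 294.5 for hst34, 1284 and 1430 for rrp6, 1265 and 1387 for hst34rrp6. In all 4 libraries with nuclear Rrp6 RBD2 stood above YPL245W, and in all 4 without it stood below. The balance shifted by −2.93 ± 0.14 in rrp6 and −2.95 ± 0.14 in hst34rrp6, the largest shift of any member pair in both.

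MMS2 and MAD1 (chromosome VII, gap 204 bp) are both members. MMS2 had 472.0 and 676.6 in WT and 245.8 and 294.5 in rrp6, while MAD1, of the spindle checkpoint, had 209.5 and 167.9 in WT, 309.6 and 336.1 in rrp6 and 381.3 and 528.6 in hst34rrp6. MAD1 rose by 0.63 ± 0.21 in rrp6 (adjusted p = 0.0302, limma) and by 1.04 ± 0.21 in hst34rrp6, and the order of the 2 genes was the reverse of that in WT in each of the 4 libraries without nuclear Rrp6.

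LYS5 and PEX14 lie 100 bp apart. LYS5, which activates the lysine-synthesis enzyme Lys2, rose by 0.65 ± 0.21 in rrp6, from 164.5 and 219.8 to 325.5 and 337.6. PEX14 had 132.5 and 203.4 in WT and 76.1 and 60.2 in rrp6, below WT in both libraries, a fall of 0.82 ± 0.17 (adjusted p = 4.93e-05, limma). NNR2, which repairs hydrated nicotinamide cofactors, fell by 0.72 ± 0.15 and MCR1, the mitochondrial cytochrome b5 reductase, rose by 1.16 ± 0.22, but their intervals overlap by 1428 bp, so their reads cannot be told apart.

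**Figure D3:**
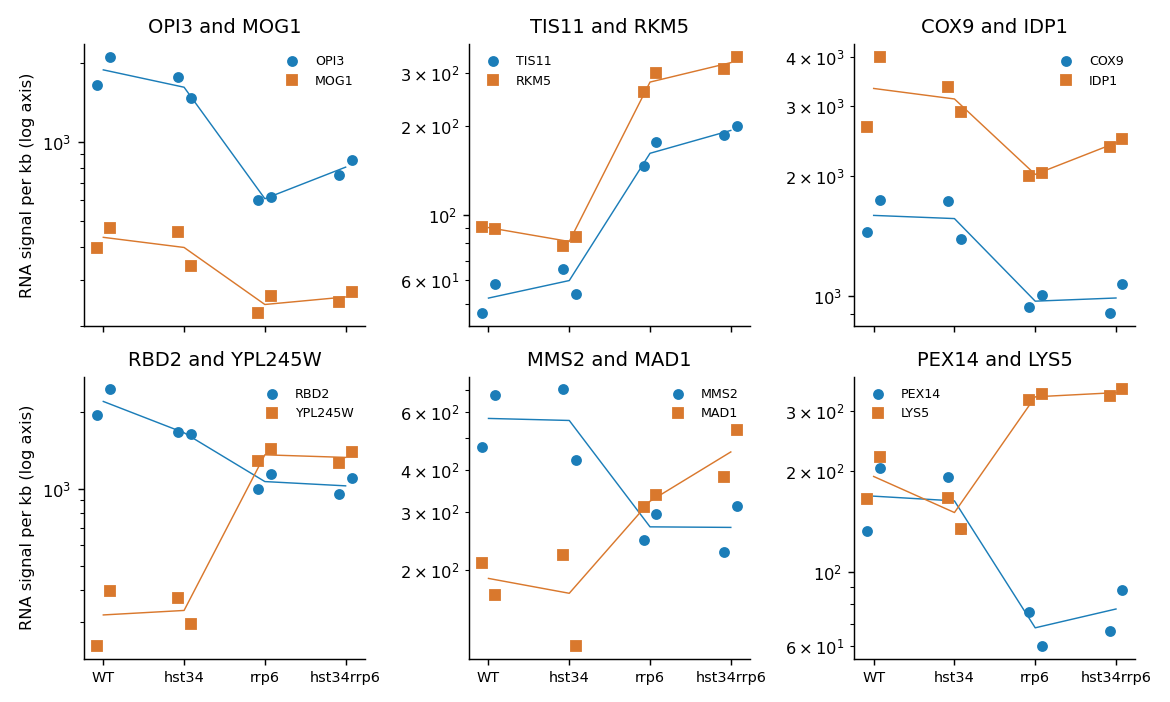
RNA signal per kb on a log axis in each library (points) and the strain mean (lines) for both genes of 6 pairs that share a short promoter. Both genes of OPI3 and MOG1, TIS11 and RKM5, and COX9 and IDP1 move the same way in rrp6, while RBD2, MMS2 and PEX14 fall and YPL245W, MAD1 and LYS5 rise.

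Balance changed in 162 of 522 member pairs in rrp6 (31.0%), against 37.1% of all pairs of neighbouring genes, and in 182 in hst34rrp6 (34.9%), against 41.7%. In 101 and 89 of those pairs neither gene passed its own test. Both counts of changed balance fell when any 1 library of the compared strains was left out. The next shifts in size in rrp6 were in the pairs of TAD2 and KAR2 (2.04 ± 0.16), SLG1 and TIR4 (−2.01 ± 0.18), MEP1 and YGR121W-A (−2.0 ± 0.16), NNR2 and MCR1 (−1.88 ± 0.15), and GTO1 and CYS4 (1.70 ± 0.14). MEP1 and YGR121W-A, and NNR2 and MCR1, are the overlapping pairs described above. TAD2, a subunit of the tRNA adenosine deaminase, had 136.9 and 109.9 in WT and 608.2 and 598.8 in rrp6. The Hsp70 of the endoplasmic reticulum, KAR2, lies 236 bp away as the member and had 4116 and 5072 in WT and 3935 and 4176 in rrp6.

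TIR4, a cell wall mannoprotein, rose from 86.7 and 66.7 to 355.3 and 375.9, and SLG1, a sensor of cell wall stress 236 bp away, with a protein-coding RefSeq gene outside the deposited list between them, had 916.5 and 1166 in WT and 723.8 and 867.5 in rrp6. GTO1, a glutathione transferase, rose from 86.4 and 90.9 to 267.1 and 319.7, and CYS4, the cystathionine synthase, 300 bp away, had 5933 and 6295 in WT and 4265 and 4689 in rrp6. In these 3 pairs without overlap the gene with the lower RNA level in WT, which is the partner and not the member, rose (TAD2 by 1.87 ± 0.21, TIR4 by 1.65 ± 0.20, GTO1 by 1.25 ± 0.19), and its partner did not pass. In hst34rrp6 against rrp6 the balance changed in 3 member pairs (0.575%), against 1.69% of all pairs. They are DPH5 and TAG1, SSH1 and YBR284W, and DAD4 and ASP1, with shifts of −0.70 ± 0.16, −0.56 ± 0.13 and 0.54 ± 0.13, and no pair passed without any 1 library of either strain.

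Across the 522 pairs, the log2 changes of the 2 genes had a Pearson correlation of 0.20 in hst34 against WT and −0.02 in rrp6 against WT. For hst34 the value was 0.21 over the 485 pairs without overlap, 0.11 over 632 divergent pairs farther apart, 0.03 over 1743 tandem pairs at 0 to 300 bp and 0.01 over 1391 convergent pairs. For rrp6 it was 0.13 over the 150 pairs of 2 members and 0.05 over the farther divergent pairs. For hst34rrp6 against WT it was −0.05 and for hst34rrp6 against rrp6 0.16 over the member pairs. All points share the same libraries, and these values are descriptions of them.

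**Figure D4:**
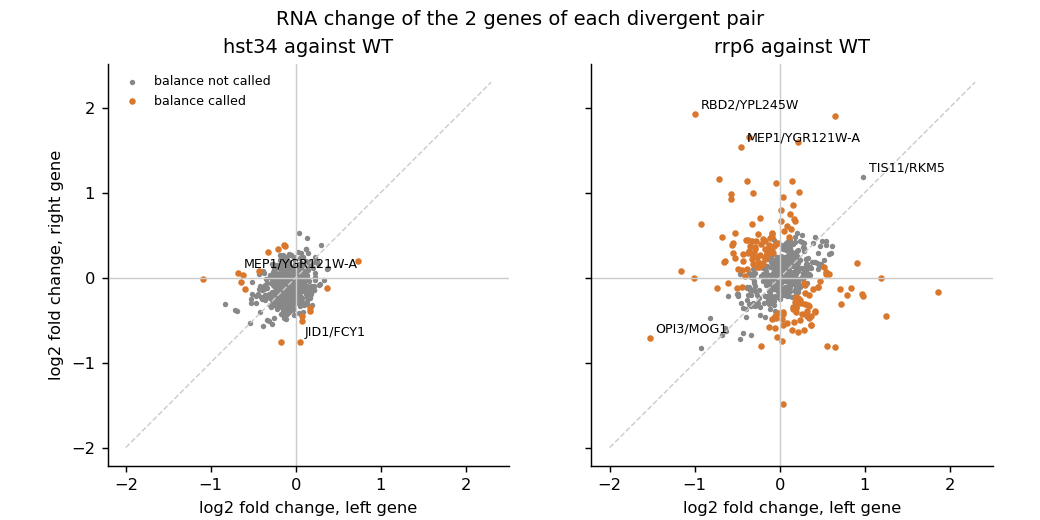
Log2 fold change of the left gene (horizontal axis) and the right gene (vertical axis) of the 522 pairs, in hst34 and in rrp6 against WT; the dashed line marks equal change and orange points are pairs whose balance passed the test (18 and 162). In hst34 the points form 1 small cloud, and in rrp6 many orange points lie along the axes, with RBD2 and YPL245W at the upper left.

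Ribosome assembly factors, a list of 154 genes, held 20 members. None of the 20 passed with limma in hst34, where their median was −0.42 against −0.36 over the whole list and −0.08 over all genes, and 1 of the 20 was above 0. At an unadjusted p under 0.05 there were 10, and edgeR called 8 (10.8% of all genes), DESeq2 7 (8.33% of all genes) and centred limma 6 (7.52% of all genes). The values were −0.57 ± 0.22 for FAF1, −0.52 ± 0.22 for BUD23, −0.51 ± 0.22 for FCF2 and −0.51 ± 0.22 for ECM16, an RNA helicase. In rrp6 the median of the 20 was 0.13 and 1 rose, LCP5 (0.69 ± 0.22). In hst34rrp6 it was 0.14, with LCP5 higher (0.71 ± 0.22) and NOP1, the fibrillarin methyltransferase, lower (−0.66 ± 0.21).

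Of 16 members with a role in DNA replication and repair, 1 rose and 2 fell in both rrp6 and hst34rrp6. The shares of all genes called were 11.2% and 15.9%. SAE2 is the one that rose, and MMS2 and RRM3, a helicase that helps forks past bound proteins, fell. Over the whole list of 136 genes, 4 rose and 3 fell in rrp6, and 19 rose and 2 fell in hst34rrp6. In hst34 none of the 16 passed, 0 had an unadjusted p under 0.05, and edgeR and DESeq2 called 0. Chaperones held 8 members, with SIS1 alone called by limma, in hst34. In hst34rrp6 against WT edgeR called 3 of the 8 (42.1% of all genes) and centred limma 5 (38.7% of all genes). In rrp6 each of these called 2, against 36.1% and 33.3% of all genes. DESeq2 called 4 and 2, and its shares over all genes are not given here. Not one of 12 mitochondrial ribosomal proteins, 7 proteasome subunits, 5 RNA polymerase subunits, 4 cytoplasmic tRNA synthetases, 2 cytosolic ribosomal proteins or 1 histone gene, HTZ1, passed with uncentred limma in any of the 4 RNA comparisons. At an unadjusted p under 0.05 these lists held 0 to 3 members each per comparison, edgeR called 0 to 2 and centred limma 0 to 4. EdgeR and centred limma both called HTZ1 in rrp6 and in hst34rrp6 against WT. Over all genes edgeR called 36.1% and 42.1% in these 2 comparisons, and centred limma 33.3% and 38.7%. The RNA polymerase subunits had a median of −0.36 in hst34, with 0 of 5 above 0, against −0.30 over the whole list of 31 genes. The proteasome subunits had 0.08 in hst34rrp6 against rrp6, with 7 of 7 above 0 and a median of 0.10 over all genes.

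In DRIP-seq no member passed in any comparison, and neither did any of the 5298 genes (0.00%). The DRIP signal per kb of the members had a median of 89.6 and 68.5 in WT, 94.4 and 62.9 in WT with RNase H, 74.7 and 73.5 in hst34, and 98.0 and 83.4 in hst34 with RNase H. It was 0.830 to 0.949 of the median over all genes in the 8 libraries. WT 2 and its RNase H library stand apart from the other 6. The 25th percentile of the members was 11.7 and 11.5 per kb there, and 45.9 to 75.2 in the others, and 17 members were at 0 in WT 2 with RNase H.

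In hst34 against WT without RNase H the members' median change was 0.01 (all genes −0.02), and 9 had an unadjusted p under 0.05, against 2.64% of all genes. Without WT 2 the median was −0.22 and without WT 1 it was 0.23, so its sign turns with the WT library kept. HST3 itself shows the spread, with 291.4 and 17.9 in WT and 373.8 and 333.4 in hst34. EdgeR and DESeq2 called 0 members as well.

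RNase H, which degrades the RNA strand of hybrids, gave a median change of 0.08 in WT (0.07 over all genes). Within library numbers it was 0.15 for the pair numbered 1 and 0.01 for the pair numbered 2, with 0 members at an unadjusted p under 0.05 in the full fit. In hst34 the median change with RNase H was 0.39 (0.34 over all genes), or 0.42 and 0.34 within the library numbers, with 67 members at an unadjusted p under 0.05, against 10.2% of all genes. EdgeR called 0, DESeq2 called 7 (0.925% of all genes), and a fit of the 4 hst34 libraries alone called 108 higher and 22 lower, against 15.9% higher and 4.11% lower over all genes. The labels name no spike-in for DRIP-seq. The signal summed over genes was 902159 to 1134350 units per library, while reads in genes ran from 935412 to 83303106. A loss of hybrids shared by all genes might therefore not show as a fall. The median changes with RNase H were rises, so the signal of the members was not shown to come from hybrids.

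**Figure D5:**
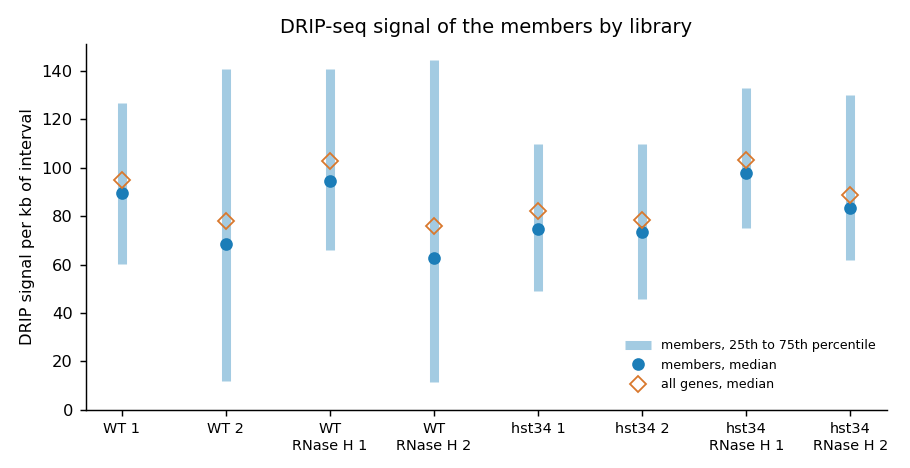
DRIP-seq signal per kb of interval in each of 8 libraries, with the median of the 672 members (filled circles), their 25th to 75th percentile (bars) and the median of all genes (open diamonds). In each library the member median lies below the median of all genes, and the bars of WT 2 and WT RNase H 2 reach lowest, to 11.7 and 11.5.

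Break-seq peaks, 239 with a median length of 2.25 kb in the authors' single list for hst34 against WT, overlapped the gap of 34 of the 485 member pairs without overlap (7.01%). They overlapped 7.42% of 633 gaps of farther divergent pairs, 8.02% of 1745 gaps of tandem pairs at 0 to 300 bp and 7.67% of all gaps, so the members stood near the background. One such peak lay on the gap of AHC1 and HST3 (chromosome XV, peak from 378001 to 379000), with 150.3 and 148.4 signal units in hst34 and 78.7 and 71.0 in WT. Another lay on the gap of IRC24 and HYR1 (chromosome IX, 422501 to 424750), with 271.4 and 346.5 in hst34 and 204.0 and 187.6 in WT. The peaks were called for this contrast, so a higher hst34 value is part of their selection. Of the 672 members, 67 overlapped a peak (9.97%, against 10.2% of all genes), and their median RNA change in hst34 was −0.09.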

How the data were processed

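Values are from RNA-seq, DRIP-seq and Break-seq, 20 of 27 samples; 7 NET-seq samples are not analysed here. The 3 deposited tables each hold a signal. The RNA signal is, per the table title, scaled to the fission yeast spike-in and by length: reads times 1 constant per library, per kb of gene interval. The deposited DRIP signal is reads per interval times 1 constant per library. The deposited Break-seq signal is scaled reads per peak of 1 MACS list. The submitters' processing notes name Bowtie2, TopHat2, SAMtools, HTSeq 0.9.1, bedtools and the build sacCer3; filters and strand: not given in the sources used here. Reads were 75 bp.

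Neighbours were taken from the deposited DRIP-seq gene intervals sorted by chromosome and start. In 7 member pairs RefSeq places another gene between. The RefSeq R64 table named 5287 genes; 11, including 2 members, kept their ID. One blank row of the RNA table was left out. No promoter sequence was used here.

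Tests used limma 3.58.1 in R 4.3.3, with its variance trend, on log2 of the value plus a pseudocount, 58.8 for RNA and 12.5 for DRIP (5th percentile of positive values), which understates changes of low genes. All 8 libraries of a table were in 1 fit, over 5294 genes (RNA, above 0 in at least 2 libraries; all 672 members) or 5298 (DRIP), with Benjamini-Hochberg adjustment at 0.05. Each ± is limma's standard error with 2 libraries per group. The RNA fit had an infinite prior df, so its standard errors are pooled over genes of like level and not the scatter of a gene's own libraries. Pair balance was fitted the same way over 5276 pairs of neighbouring genes; a positive shift favours the left gene. Had the tables held whole-number counts, a count test would have come first; they hold scaled values, so limma did. Dividing by the value of 1 read gave whole reads for 100% of values within 0.01, and edgeR 4.0.16 and DESeq2 1.42.0 were run on these as alternatives; over all genes edgeR called 0 in each DRIP comparison. Read numbers give counting error only, since PCR copies were not marked. The limma step was tested on simulated data.

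The genes named are, per comparison, up to 10 members each way by fold change among those called, up to 6 pairs called in the same direction, 4 in opposite directions and 6 by balance, the members nearest the 300 bp limit, textbook bidirectional promoters, HST3, HST4 and RRP6, and examples from fixed lists. Partners, genes under Break-seq peaks and other genes named beside them were chosen after their values were seen. Members, lists and rules were chosen with earlier results of these data known.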

Additional observations from a re-analysis of the deposited data

Results flagged for a closer look

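The effect of hst34 on GUD1, guanine deaminase and a member, differed between strains with and without nuclear Rrp6 by an interaction term of 1.01 ± 0.27 (adjusted p = 0.0211, limma). GUD1 RNA gave 164.3 and 203.7 per kb for WT, 137.1 and 97.1 for hst34, 133.2 and 164.6 for rrp6, 240.1 and 245.6 for hst34rrp6. It lay below WT in both hst34 libraries and above rrp6 in both hst34rrp6 libraries, but neither difference passed its own test. The change was −0.47 ± 0.19 in hst34 against WT (adjusted p = 0.352, limma). In hst34rrp6 against rrp6 it was 0.54 ± 0.19 (adjusted p = 0.208, limma).

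The balance of GET3, of the tail-anchored protein pathway, over BUG1, of the Golgi, differed in the same way by −0.87 ± 0.21 (adjusted p = 0.0475, limma), and that of SAS2, a histone acetyltransferase, over ECM16 by −0.83 ± 0.18 (adjusted p = 0.0263, limma). Groups of 2 libraries were too small for a check of outlying samples.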

How the results depend on the processing

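Counts of called members moved more than any named value. Calls were 1 for hst34, 61 for rrp6 and 98 for hst34rrp6, each against WT, and 5 for hst34rrp6 against rrp6, the order kept below. Centring gave 27, 206 and 232 against WT. A pseudocount of 1 gave 0 in the first and 3 in the last. Dropping the lowest 25% of genes gave 0, 30, 42 and 0, with 476 members left. Fits of the compared groups alone gave 0, 118 and 13 in the first, second and last. EdgeR gave 43, 221, 257 and 15, and DESeq2 28, 179, 206 and 13. Against WT, edgeR called 10.8%, 36.1% and 42.1% of all genes and centring 7.52%, 33.3% and 38.7%. DESeq2 called 8.33% of all genes for hst34 against WT. Shares over all genes for the other settings are not given, so those counts are not set against a background. Leaving out 1 library gave 0 to 30, 20 to 38, 39 to 57 and 0 to 3.

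Pairs with a changed balance (18, 162, 182 and 3) became 87 and 100 for rrp6 and hst34rrp6 against WT with the lowest genes dropped, 3 and 33 in the first and last with the compared groups alone, and 16 to 20, 94 to 149, 112 to 169 and 0 without 1 library. In DRIP-seq, leaving out 1 library gave 0 in each comparison; for RNase H in hst34 the compared groups alone gave 130 and DESeq2 7. A limit of 150 bp gave 284 members. Over the 46 named member values, 468 of 533 alternative values stayed on their side of the threshold, 65 fell below it and 0 changed sign.

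Replicate numbers are shared by the groups, with correlations of −0.20 to 0.11 between same-numbered RNA libraries and 0.12 to 0.94 in DRIP-seq, and the labels share numbers without saying what a number stands for; the DRIP-seq libraries of a number deviate together. With a replicate block the member counts were 0, 38 and 3 in the first, second and last comparison, the changed balances 9 and 0 in the first and last, and DRIP-seq stayed at 0.

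Neighbours rest on the listed genes, 2 libraries per group limit every test, and the cause of these moves was not tested.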
